A study of Mus musculus with 6 samples.

Results

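Rab proteins are small GTPases that mark the membranes of a cell and steer traffic between them. An exchange factor loads a Rab with GTP on its membrane, the loaded Rab recruits effectors that move, tether or fuse vesicles, and a GTPase-activating protein switches it off. In muscle fibers this traffic carries, among other cargo, the glucose transporter GLUT4 to the cell surface and worn material to lysosomes. The genes described here are the 55 mouse genes whose symbol is Rab followed by a number, with or without letters after it, of 17097 genes that the array's annotation names alone on at least 1 probe set. A probe set is a group of short probes against 1 transcript, and a gene was read on its brightest one, the one with the highest mean of the 6 arrays.

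RNA came from gastrocnemius, the large calf muscle, of male ICR mice that were 7 weeks old when housed. In the MA group the mice ate a diet with 0.27% maslinic acid (MA), a triterpene of olive peel, and in the control group the AIN-93G diet without it, in both from a week before surgery. Surgery was the same in both groups. The sciatic nerve was severed on the left and the right and a piece was taken out, so that every muscle was denervated, and muscle was collected on day 14 after it. There were 3 arrays in each group, and the sources used here do not state whether they came from different mice, so p-values measure only the spread between these arrays. No array of a muscle with its nerve intact was analysed here.

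Values are log2 RMA values, and each difference is MA minus control with the standard error (SE) of limma, fitted over 45037 probe sets. Rose, fell and called are used of genes with p under 0.05 after Benjamini-Hochberg adjustment over that whole set of tests. Arrays of 1 group correlated at 0.9992 to 0.9997 and arrays of different groups at 0.9934 to 0.9937 across probe sets, and the 18 hybridization control probe sets, which report RNA added to each sample, were all higher in the MA group, by 0.04 to 0.35. Array background was set at 3.95, the highest value that a nonspecific-binding control probe set reached on any array. The most GC-rich of these controls, which averaged 7.24, was left out. All 14 muscle fiber markers measured were above background on every array. Their summed linear level was 63121 to 63409 in the MA group and 60108 to 60163 in the control group. Of them 8 were higher and 1 was lower in the MA group. Casq1 was higher by 0.45 and Ryr1 lower by 0.29, both past 1.2-fold. The 22 macrophage markers summed to 2652 to 2725 in the MA group and 4535 to 4613 in the control group, with 18 of them lower in the MA group and 1 higher, and the 11 endothelial markers summed to 469 to 481 in the MA group and 558 to 576 in the control group, with 10 lower and none higher. Among the macrophage markers, Itgam stayed under background on every array. Fibroblast markers summed to 7953 to 7978 in the MA group and 7386 to 7486 in the control group. Of 10 such markers 5 were higher, among them Lum, Col1a1, Col3a1 and Fap past 1.2-fold. The 2 lower ones were Gsn, by 0.19, and Dpt, by 0.12. Of 5 adipocyte markers 4 were higher, among them Adipoq by 0.64 and Plin4 by 0.38, both past 1.2-fold. Fabp4, by far the brightest of them, was lower by 0.22. The adipocyte sums, made up mostly of Fabp4, were 2259 to 2294 in the MA group and 2516 to 2553 in the control group. Of 5 Schwann cell markers 2 were higher, Pmp22 by 0.24 and Sox10 by 0.14. Another 2 were lower, Mbp by 0.49 and S100b, under background, by 0.10. The Schwann cell sums were 324 to 328 in the MA group and 319 to 332 in the control group. The part of these cells in the rises and falls of the Rab genes was not tested. In whole muscle, fewer cells of a type and less RNA per cell cannot be told apart.

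The MA diet went with changes in both directions across the family. Of the 55 Rab genes, 17 rose and 15 fell in the MA group, and 23 did not pass the test. That is 58.2% called, beside 47.8% of all genes, and by direction 30.9% against 24.7% of all genes for rises and 27.3% against 23.0% for falls. A fold over 1.2 was passed by 4 of the risen genes, Rab21, Rab15, Rab30 and Rab23, and by 6 of the fallen ones, Rab31, Rab13, Rab43, Rab29, Rab11b and Rab1a. These 10 were 18.2% of the family, against 12.8% of all genes, with 5.92% of all genes higher and 6.87% lower by that rule. The median difference was 0.025 over the family and 0.006 over all genes, and differences ran from a fall of 0.54 to a rise of 0.47. All MA arrays lay on the same side of all control arrays for 37 Rab genes, 67.3% of them and 58.6% of all genes. On all 6 arrays 44 Rab genes were above background, of which 14 rose and 13 fell, or 61.4%. The other 11 were below it on all 6. Of all 17097 genes 11678 were above background on every array and 4550 below it on every array. The share called among those 11678 is not given here, so the shares above set the family beside genes of which a larger part is under background.

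**Figure D1:**
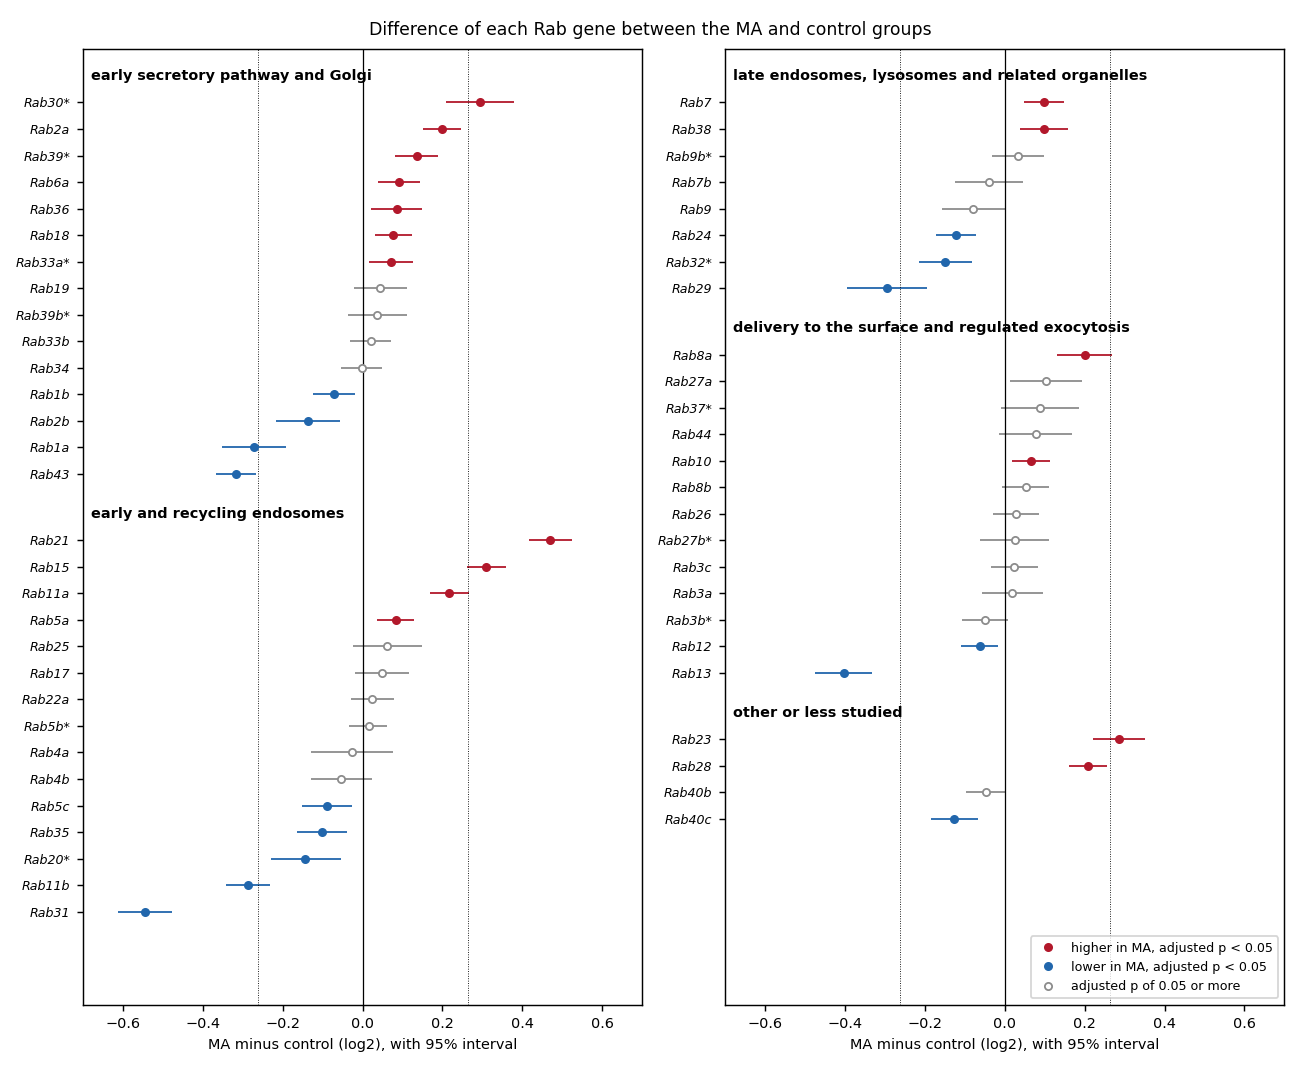
Difference between the MA and control groups (log2, x axis) of each of the 55 Rab genes, grouped by the membrane they serve, with the 95% interval of limma; red points rose, blue points fell, open points were not called, dotted lines mark 1.2-fold and an asterisk marks a gene under background on all 6 arrays. Rab21, Rab15, Rab30 and Rab23 lie right of the upper line and Rab31, Rab13, Rab43, Rab29, Rab11b and Rab1a left of the lower one.

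Rabs of early and recycling endosomes held both ends of the range. These compartments sort what a cell takes in and send receptors and transporters back to the surface. Of 15 such genes, 4 rose, 5 fell and 6 were not called, so 60% were called, beside 47.8% of all genes. Rab21 guides integrins and fluid taken up through early endosomes. Its values were 8.99, 8.97 and 8.97 in the MA group and 8.48, 8.54 and 8.50 in the control group. Every MA array lay above every control array, and the gene rose by 0.47 (SE 0.023, 1.39-fold, adjusted p = 1.37e-06), the highest difference of the family. Its second probe set rose too, by 0.34 (adjusted p = 2.95e-05). Rab31, a close relative of Rab22a that works between the trans-Golgi network and endosomes, was the gene that fell furthest. It read 7.26, 7.32 and 7.35 in the MA group and 7.85, 7.88 and 7.83 in the control group. The groups were far apart for their spread, a fall of 0.54 (SE 0.030, 1.46-fold, adjusted p = 2.53e-06). Macrophage and endothelial markers fell on the same arrays, as given above, and their part in the fall of Rab31 was not tested. Rab22a itself differed by 0.02, with a 95% interval of -0.03 to 0.08. The difference between Rab22a and Rab31, taken within each array, was 0.57 higher in the MA group.

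The start regions of Rab21 and Rab31 are shown because these genes are the ends of the family's range. They are RefSeq promoter windows of build GRCm38.p6, 300 bases from 250 before the annotated start to 50 after it, written 5′ to 3′ on the gene's strand, which is the minus strand for both. Rab21 lies at chr10:115315542-115315841 and Rab31 at chr17:65772703-65773002. Capitals mark matches to 4 motifs on either strand, the CLEAR palindrome of lysosomal genes, which is the E-box CACGTG with GT before it and AC after it, the GC box GGGCGG, the CCAAT box CCAAT and the ETS core CCGGAAG.
Rab21 promoter: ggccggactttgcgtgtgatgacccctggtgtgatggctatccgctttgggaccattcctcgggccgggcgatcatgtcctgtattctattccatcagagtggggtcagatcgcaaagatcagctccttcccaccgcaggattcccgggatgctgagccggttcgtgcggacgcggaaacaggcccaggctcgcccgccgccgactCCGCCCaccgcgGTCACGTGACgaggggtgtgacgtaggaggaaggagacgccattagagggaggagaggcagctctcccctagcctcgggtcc
Rab31 promoter: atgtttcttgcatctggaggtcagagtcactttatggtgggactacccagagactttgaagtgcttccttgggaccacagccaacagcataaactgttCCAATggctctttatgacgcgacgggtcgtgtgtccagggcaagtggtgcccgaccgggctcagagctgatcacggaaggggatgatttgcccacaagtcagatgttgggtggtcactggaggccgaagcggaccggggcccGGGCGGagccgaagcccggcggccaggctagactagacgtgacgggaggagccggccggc
The Rab21 window held the CLEAR palindrome from base 219 and a GC box on the other strand from base 207. The Rab31 window held CCAAT from base 99 and a GC box from base 241. Windows were given for 44 of the 55 genes. The CLEAR palindrome was in 3 of them, Rab21, Rab5a and Rab24, which is 6.82% of the family's windows and 0.355% of all 27025 windows. Rab21 and Rab5a rose and Rab24 fell. The shorter CACGTG was in 5, or 11.4%, against 7.24% of all windows, and the additional ones were Rab20 and Rab23. The GC box was in 68.2% against 35.9% and CCAAT in 50.0% against 38.0%. The windows of the family also had a higher GC content, a median of 61.7% against 52.7% over all windows. Matches to these letters describe the sequence and were not tested as binding sites.

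Rab15 acts on receptor recycling and was first studied in nerve cells. It read 6.48, 6.49 and 6.47 in the MA group and 6.15, 6.18 and 6.17 in the control group. The groups did not overlap, and it rose by 0.31 (SE 0.021, 1.24-fold, adjusted p = 8.76e-06). The 8 neuron markers, 5 of them under background on every array, had summed levels of 178 to 183 in the MA group and 180 to 186 in the control group. Rab5a, a master regulator of early endosome fusion and one of the 6 brightest members, read 10.57, 10.58 and 10.58 in the MA group and 10.50, 10.49 and 10.49 in the control group. It rose by a small amount, 0.08 (SE 0.020, adjusted p = 0.011), with no overlap. Its paralog Rab5c fell by 0.09 (adjusted p = 0.0285), and Rab5b stayed under background. Rab35, which returns cargo from endosomes to the surface, fell by 0.10, and Rab20, known from phagosomes, fell by 0.14 under background. Rab4a and Rab4b, of the fast recycling route, differed by -0.03 (95% interval -0.13 to 0.08) and -0.05 (-0.13 to 0.02). The epithelial Rab17 and Rab25 did not pass the test either.

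The Rab11 paralogs, which run the slow recycling endosome, went opposite ways. Rab11a read 8.00, 8.00 and 8.00 in the MA group and 7.76, 7.80 and 7.78 in the control group, and Rab11b read 8.41, 8.46 and 8.41 in the MA group and 8.70, 8.71 and 8.73 in the control group. Neither gene's groups overlapped. Rab11a rose by 0.22 (SE 0.021, 1.16-fold, adjusted p = 8.05e-05), and its second probe set by 0.17. Rab11b fell by 0.29 (SE 0.024, 1.22-fold, adjusted p = 2.79e-05). Of its other probe sets one fell by 0.21 (adjusted p = 0.0199), and one under background differed by 0.02, and the mean of the 3 fell by 0.16. The within-array difference of the brightest probe sets, Rab11a minus Rab11b, was 0.50 higher in the MA group than in the control group (exact permutation test, two-sided p = 0.1, the smallest that 3 arrays against 3 can give). Among 18 pairs of close paralogs compared in this way, 15 did not overlap between the groups. Of all genes taken singly 58.6% did not overlap, and the share among other pairs of genes was not computed. The Rab5 and Rab3 genes each enter more than 1 pair. All 15 pairs had that same p of 0.1, which is 0.12 after Benjamini-Hochberg adjustment over the 18. In 3 pairs, Rab11a and Rab11b, Rab2a and Rab2b, and Rab5a and Rab5c, the members were called in opposite directions on their brightest probe sets, although the calls of Rab2b and Rab5c were lost under other settings. A change in this within-array value shows unequal change of the 2 probe sets, not a ratio of the transcripts.

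The start regions of the pair are shown because the genes moved apart. Both windows are from the minus strand, Rab11a at chr9:64737707-64738006 and Rab11b at chr17:33760437-33760736, with the same build and the same capitals.
Rab11a promoter: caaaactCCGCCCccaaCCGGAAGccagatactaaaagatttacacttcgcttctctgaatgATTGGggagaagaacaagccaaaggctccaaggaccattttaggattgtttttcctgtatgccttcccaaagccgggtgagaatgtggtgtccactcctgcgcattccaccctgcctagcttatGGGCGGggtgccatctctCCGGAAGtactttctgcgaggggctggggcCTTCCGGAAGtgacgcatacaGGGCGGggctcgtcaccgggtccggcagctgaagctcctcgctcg
Rab11b promoter: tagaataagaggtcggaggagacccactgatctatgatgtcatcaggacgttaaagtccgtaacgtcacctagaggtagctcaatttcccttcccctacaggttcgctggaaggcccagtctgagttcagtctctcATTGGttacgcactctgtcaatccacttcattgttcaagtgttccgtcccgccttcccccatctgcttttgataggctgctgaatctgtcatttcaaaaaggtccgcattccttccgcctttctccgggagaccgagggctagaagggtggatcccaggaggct
The Rab11a window held the ETS core from bases 18, 205, 235 and 238, with 3 GC boxes and 1 CCAAT box. The matches from bases 235 and 238 overlap on opposite strands and form a single stretch of capitals. The Rab11b window held 1 CCAAT box, from base 137, and no other motif of the 4. Over the family the ETS core was in 9.09% of windows, against 9.14% of all windows. The windows differed in GC content too, 56.3% for Rab11a and 51.3% for Rab11b.

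**Figure D2:**
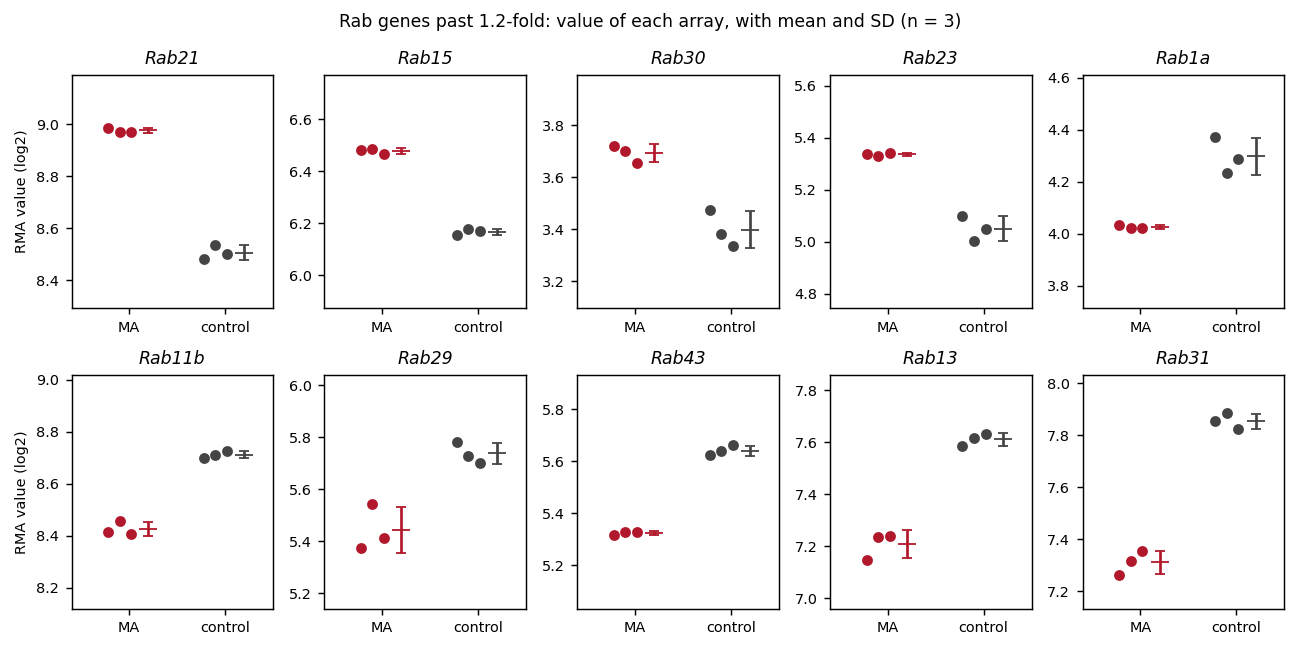
RMA value (log2, y axis) of each array for the 10 Rab genes past 1.2-fold, with MA arrays in red left of control arrays in grey and the mean and SD of the 3 beside them; every panel spans the same number of log2 units. In all 10 panels the MA and control arrays are apart, and Rab29 has the widest spread among MA arrays, from 5.38 to 5.54.

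Among 15 Rabs of the early secretory pathway and the Golgi, 7 rose, 4 fell and 4 were not called. The called share was 73.3%, beside 47.8% of all genes. Rab2a, which works between the endoplasmic reticulum and the Golgi, had the most probe sets of the family, 6. The brightest read 10.55, 10.53 and 10.54 in the MA group and 10.34, 10.36 and 10.34 in the control group, a rise of 0.20 (SE 0.021, 1.15-fold, adjusted p = 0.00012). All 6 rose, by 0.12 to 0.36. Its paralog Rab2b fell by 0.14 near background (adjusted p = 0.0142), while its second probe set, under background, was 0.07 higher (adjusted p = 0.21). With the mean of both, Rab2b differed by -0.03 (adjusted p = 0.387), and the one-way test of the methods did not call it either. Rab18, of the endoplasmic reticulum and lipid droplets, read 9.56, 9.55 and 9.55 in the MA group and 9.48, 9.48 and 9.47 in the control group. It rose by 0.08 (SE 0.020, adjusted p = 0.016), and its other probe set by 0.12. Rab2a and Rab18 are among the 6 brightest members.

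Rab43, which acts on the Golgi and its links to the endoplasmic reticulum, read 5.32, 5.33 and 5.33 in the MA group and 5.62, 5.64 and 5.66 in the control group. This was a fall of 0.32 (SE 0.022, 1.25-fold, adjusted p = 9.24e-06) with no overlap, while its second, dimmer probe set differed by 0.01 (adjusted p = 0.773) and the mean of both by -0.15. Rab1a, needed for transport out of the endoplasmic reticulum, was read on 1 probe set close to background, at 4.04, 4.02 and 4.02 in the MA group and 4.37, 4.23 and 4.29 in the control group. It fell by 0.27 (SE 0.035, 1.21-fold, adjusted p = 0.000397), and Rab1b, which shares its task, by 0.07 (adjusted p = 0.0321). Rab30, a Golgi Rab, was under background on every array, at 3.72, 3.70 and 3.65 in the MA group and 3.48, 3.38 and 3.34 in the control group. Its rise of 0.29 (SE 0.037, adjusted p = 0.000362) is therefore a difference between values that background also reaches. The other rises, of Rab39, Rab36, Rab33a and Rab6a, were between 0.07 and 0.14, and Rab39 and Rab33a were under background. Rab19, Rab33b, Rab34 and Rab39b did not pass the test.

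Of 8 Rabs of late endosomes, lysosomes and related organelles, 2 rose, 3 fell and 3 were not called. The called share was 62.5%, beside 47.8% of all genes. Rab7, which brings late endosomes and autophagosomes to lysosomes, read 9.13, 9.11 and 9.15 in the MA group and 9.04, 9.03 and 9.03 in the control group. It rose by 0.10 (SE 0.022, 1.07-fold, adjusted p = 0.00682), and by 0.21 on its second probe set. Rab24, linked to the clearing of autophagosomes, fell by 0.12 (adjusted p = 0.00218). Rab29, a partner of the kinase LRRK2 at the Golgi and at stressed lysosomes, read 5.38, 5.54 and 5.41 in the MA group and 5.78, 5.73 and 5.70 in the control group. The MA array closest to the control arrays still lay below all of them, and the gene fell by 0.30 (SE 0.044, 1.23-fold, adjusted p = 0.000855). Rab32 and Rab38, which serve melanosomes and other lysosome-related organelles, were called in opposite directions, Rab38 higher by 0.10 and Rab32 lower by 0.15 under background. Rab7b, Rab9 and Rab9b did not pass the test.

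Of 13 Rabs of delivery to the surface and regulated exocytosis, 2 rose, 2 fell and 9 were not called. The called share was 30.8%, beside 47.8% of all genes. Rab13, which acts at epithelial junctions and in GLUT4 delivery in rat muscle cells, read 7.15, 7.24 and 7.24 in the MA group and 7.59, 7.62 and 7.63 in the control group. It fell by 0.40 (SE 0.031, 1.32-fold, adjusted p = 1.79e-05), with the groups apart. Endothelial markers, of cells that also form junctions, fell on the same arrays, and their part in this value was not tested. Rab10, the Rab of GLUT4 vesicles in fat cells and the brightest of the family, read 10.76, 10.76 and 10.77 in the MA group and 10.71, 10.69 and 10.70 in the control group. The brightest probe set rose by 0.07 (SE 0.021, adjusted p = 0.0311), and 2 dimmer ones rose by 0.14 and 0.23. Rab12 was counted in this group, although it is best known for directing receptors to breakdown, so that Rab13 is the only fall among the others. It read 9.86, 9.88 and 9.87 in the MA group and 9.93, 9.93 and 9.94 in the control group, a fall of 0.06 (SE 0.021, adjusted p = 0.0363). Rab8a, of delivery to the surface and cilium, rose by 0.20 (adjusted p = 0.000983), but a dimmer probe set fell by 0.16 (adjusted p = 0.0019). Its paralog Rab8b differed by 0.05. Rab3a, Rab3b and Rab3c, which tether synaptic and secretory vesicles, Rab27a, Rab27b and Rab37 of secretory granules, and Rab26 and Rab44 did not pass the test.

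Rab23, an inhibitor of Hedgehog signalling, read 5.34, 5.33 and 5.34 in the MA group and 5.10, 5.00 and 5.05 in the control group. It rose by 0.29 (SE 0.028, 1.22-fold, adjusted p = 7.77e-05), while its other probe sets differed by 0.07 and 0.00 and were not called. As the mean of the 3 probe sets it rose by 0.12, under 1.2-fold. Rab28, of cilia in the retina, rose by 0.21 (1.15-fold), just under the fold of 1.2, as Rab11a, Rab8a and Rab2a did with 0.22, 0.20 and 0.20. Rab40c, which joins a ubiquitin ligase, fell by 0.13 (adjusted p = 0.0046), while its second probe set, under background, was 0.09 higher (adjusted p = 0.0534). With the mean of both, Rab40c differed by -0.02 and the call was lost (adjusted p = 0.524). Rab40b differed by -0.05 and did not pass the test.

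Probe sets of 1 gene did not always behave alike. The family had 99 probe sets, with 29 genes on 1 and 26 on more. Over all probe sets of the array 42.9% were called. All probe sets of 7 genes were called the same way, and 18 genes had at least 1 call and no call the other way, those 7 included. Rab6a and Rab8a had calls in both directions, and 6 genes had none. For Rab6a, which directs Golgi transport, the brightest probe set rose by 0.09 and the others fell by 0.09 and 0.08, all 3 called. Of the genes that did not pass on their brightest probe set, 5 had a call on another, Rab27b, Rab22a and Rab3c higher and Rab7b and Rab40b lower. Which transcripts these probe sets read was not tested.

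**Figure D3:**
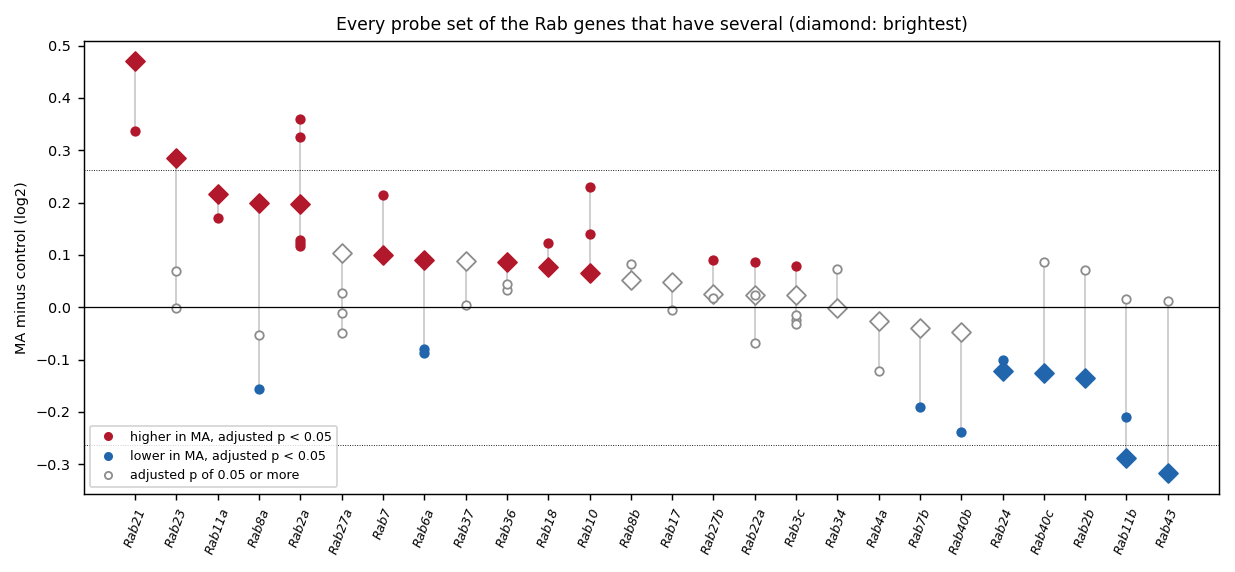
Difference between the MA and control groups (log2, y axis) of every probe set of the 26 Rab genes with more than 1, in the order of the brightest, which is drawn as a diamond; red marks a rise, blue a fall and an open symbol neither. The 6 probe sets of Rab2a are all red, and those of Rab6a and Rab8a lie on both sides of zero.

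Genes that load, unload or read Rabs changed in both directions too. In 4 lists of such genes, 117 of 131 were measured, with 37 higher, 34 lower and 46 that did not pass the test, and a median difference of -0.001. That is 60.7% called, beside the same 47.8% of all genes. Past 1.2-fold were 9 higher and 5 lower, 12% of these genes and 12.8% of all genes. Among prenylation and recycling factors, 2 of 7 rose and 3 fell (71.4% called). Gdi2, which draws inactive Rabs off membranes, read 10.94, 10.97 and 10.94 in the MA group and 10.62, 10.59 and 10.61 in the control group. It rose by 0.34 (SE 0.022, adjusted p = 5.92e-06), on a probe set whose name marks it as able to bind other transcripts. Rabac1, an acceptor of prenylated Rabs, differed by 0.01.

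Of 33 exchange factors 10 rose and 12 fell (66.7% called, beside 47.8% of all genes). The 2 highest rises of this list were those of Rabgef1 and Ankrd27, and a link of either to the rise of Rab21 was not tested. Rabgef1, which activates Rab5 and Rab21, read 8.83, 8.84 and 8.85 in the MA group and 8.40, 8.43 and 8.41 in the control group, and rose by 0.43 (SE 0.021, adjusted p = 1.49e-06). Ankrd27, an exchange factor of Rab21 that also binds Rab32 and Rab38, read 6.32, 6.34 and 6.42 in the MA group and 5.98, 6.01 and 5.998 in the control group, a rise of 0.37 (SE 0.030, adjusted p = 2.72e-05). Rin1, an activator of Rab5, rose by 0.28. Dennd1b, an exchange factor of Rab35, fell by 0.45 (SE 0.027, adjusted p = 3.98e-06), and Hps4, a subunit of the complex that activates Rab32 and Rab38, by 0.31. Dennd5a, of Rab6 traffic, differed by 0.07 (adjusted p = 0.0921).

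Of 33 GTPase-activating proteins 12 rose and 9 fell (63.6% called, beside 47.8% of all genes). Tbc1d7, best known as a subunit of the TSC complex that restrains mTORC1, read 6.13, 6.14 and 6.15 in the MA group and 5.48, 5.58 and 5.60 in the control group, a rise of 0.59 (SE 0.033, 1.5-fold, adjusted p = 3.06e-06). Tbc1d1, the muscle protein that holds GLUT4 vesicles back until insulin or contraction releases them, read 7.48, 7.52 and 7.53 in the MA group and 7.10, 7.09 and 7.10 in the control group, a rise of 0.42 (SE 0.023, adjusted p = 2.37e-06). Its relative Tbc1d4 differed by -0.05, with a 95% interval of -0.18 to 0.09. Tbc1d16, which acts on Rab4, rose by 0.41, and Tbc1d19 rose by 0.32. Tbc1d17, which acts on Rab8 in receptor recycling, fell by 0.42, and Tbc1d2b by 0.28. The brightest of the list were Tbc1d14, an autophagy regulator that rose by 0.10, and Rabgap1, which fell by 0.08.

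Of 44 effectors 13 rose and 10 fell (52.3% called, beside 47.8% of all genes). A fold over 1.2 was passed by 1 (2.27%, beside 12.8% of all genes). This was Sytl2, which ties Rab27 vesicles to the plasma membrane. It read 5.72, 5.77 and 5.78 in the MA group and 4.63, 4.77 and 4.88 in the control group, a rise of 1.00 (SE 0.056, 2-fold, adjusted p = 2.91e-06), while Rab27a differed by 0.10 (95% interval 0.01 to 0.19, adjusted p = 0.0621). The brightest effectors were Rilpl1, a binder of phosphorylated Rab8 and Rab10 that fell by 0.22, and Uso1, a Rab1 tether that rose by 0.11. In a list of GLUT4 vesicle traffic, 14 of 16 genes were measured, with 2 higher (14.3%, beside 24.7% of all genes), 7 lower (50%, beside 23.0%) and a median difference of -0.075. Slc2a4, the gene of GLUT4, rose by 0.13 (adjusted p = 0.00242) and Tbc1d1 by the value above. Stx4a, the surface SNARE that GLUT4 vesicles fuse through, fell by 0.27, Exoc3 of the exocyst by 0.31 and Akt2, the insulin-signalling kinase, by 0.13.

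**Figure D4:**
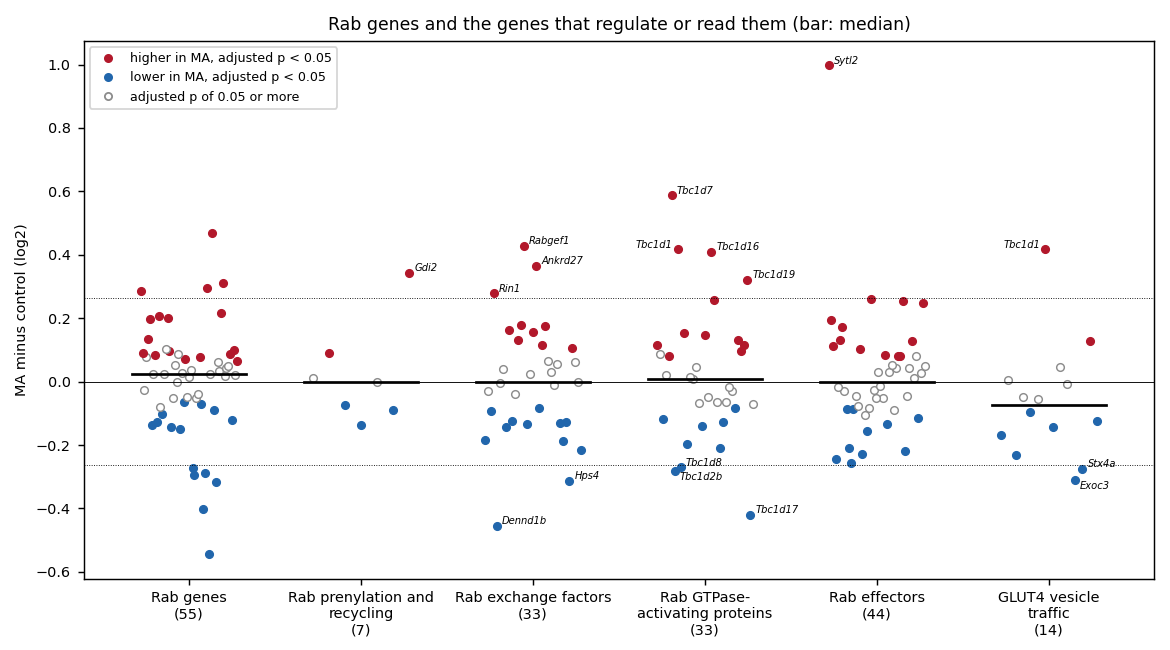
Difference between the MA and control groups (log2, y axis) of each Rab gene and of each measured gene of 5 lists, with the number measured under the name; red marks a rise, blue a fall, open points were not called, bars are medians, dotted lines mark 1.2-fold and names mark listed genes past it. Sytl2 lies at 1.00, above every other gene drawn, and the medians of the Rab genes and of the 4 regulator lists lie near zero.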

How the data were processed

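RNA of denervated gastrocnemius was measured on 6 mouse arrays of the GeneAtlas system, 3 per group. Several arrays share a strip in this system, and which of them did is not given in the sources used here, so a strip effect was not tested. Per the labels and the methods, the authors summarised the scans by RMA with Affymetrix Expression Console, and Transcriptome Analysis Console served for their group comparison. The deposited table holds 1 log2 value per probe set. Its probe sets belong to the mouse array of the methods, although the design text speaks of a human one. Here 45037 probe sets, without 104 array controls, were fitted with lmFit and eBayes of limma 3.58.1 in R 4.3.3, with no covariate. Of them 28898 name 1 gene, 551 several and 15588 none in the platform annotation, and only those naming 1 gene stand for a gene. One probe set that names Rab20 with another gene was not used. Rab14, Rab42, Rab3d and Rab6b were not analysed here. Of these steps only the limma fit was tested on simulated data.

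Full values per array are given for members with adjusted p under 0.05 and a fold over 1.2 and for the 6 brightest, with close paralogs. From each list of regulators come the members past that threshold, at most 6, and the 2 brightest. Values per array of Rab11a, and Tbc1d4, were added after values were seen. Members and lists were chosen with earlier results of these data known. The number of arrays limits the precision. The alternatives changed the test (an unmoderated one-way test as in the methods, a trend or robust moderation in eBayes, weights per array, the replicate number as a block), the scaling (another quantile normalization, median centring), the filter on low signal, the probe set of a gene and the fold, or left out each array. The filter at array background was chosen after seeing the data. Same-numbered arrays shared deviations from their group means at correlations of 0.188, 0.042 and 0.142, and differently numbered ones at -0.18 to 0.07. Numbers 1 and 3 correlated best with their own number in both groups, and number 2 did not. The numbers were not taken as pairs in the main fit, and these values do not settle whether they are pairs. Promoter windows of 27025 genes and their coordinates are from RefSeq on GRCm38.p6. Where several windows were listed for a gene, the most upstream was used. Motifs were searched on both strands, also TGACGTCA (4.55% of the family's windows, 1.85% of all) and TTCNNNGAA (9.09% and 8.42%).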

Additional observations from a re-analysis of the deposited data

Results flagged for a closer look

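The hybridization controls report RNA added to each sample and enter no comparison of genes. They differed between the groups, higher in the MA group in 18 of 18 probe sets, with a median difference of 0.173 (0.035 to 0.354). Their part in the differences of the Rab genes was not tested.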

How the results depend on the processing

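Of the 32 Rab genes that rose or fell, 18 were called the same way under every alternative that tested them, among them all 10 past 1.2-fold, though not all kept that fold. With the mean of a gene's probe sets Rab23 was at 0.118, Rab11b at -0.16 and Rab43 at -0.152, all under 1.2-fold, which left 3 higher and 4 lower past it, and array weights left 4 higher and 4 lower. Another 12 lost the call under at least 1 alternative, Rab33a and Rab36 under 9 each. Rab8a and Rab6a turned round with the mean of their probe sets, to -0.003 and -0.025. Of the 23 other Rab genes 9 passed in the same direction under at least 1 alternative. Also among the 23, the difference turned round for some. Rab34 did so at 0.004 (quantile normalization again), 0.001 (array weights), 0.036 (mean of probe sets) and 0.073 (probe set with the largest SD). Rab4a turned round at 0.007 (quantile normalization again), Rab3a at -0.01 (array weights) and Rab17 at -0.005 (probe set with the largest SD). Without 1 array, differences ran from -0.014 to 0.005 for Rab34, -0.06 to 0.03 for Rab4a, -0.006 to 0.051 for Rab3a, -0.006 to 0.065 for Rab27b and -0.063 to 0.002 for Rab7b, while 13 to 16 Rab genes rose and 11 to 13 fell, 3 to 4 and 5 to 6 of them past 1.2-fold, and 30 to 35 regulators and effectors rose and 25 to 37 fell. Leaving out 1 array ended the calls of Rab18 (without control replicate 3, adjusted p = 0.0525), Rab35 (without control replicate 2, 0.0595), Rab38 (without MA or control replicate 3, up to 0.0578), Rab20 (without MA replicate 1 or 2 or control replicate 2, up to 0.0624), Rab36 (without MA replicate 1 or 2 or control replicate 1 or 3, up to 0.0988), Rab1b (without MA replicate 1 or 3 or control replicate 2 or 3, up to 0.101), Rab5c (without any MA replicate or control replicate 1, up to 0.0849), Rab10 (without any array but control replicate 1, up to 0.095), Rab33a (without any array but control replicate 3, up to 0.13) and Rab12 (without any array, up to 0.0959).

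A filter above the highest nonspecific-binding control of all tested 19 Rab genes, so fewer could be called. It gave 10 higher and 8 lower, 1 and 3 past 1.2-fold, and 12 higher and 8 lower regulators and effectors. A fold over 1.5 was passed by 0 higher and 0 lower Rab genes at any p, since the largest was 1.46. The largest fold of a hybridization control, 1.28, was passed by 1 higher and 2 lower. With the replicate number as a block, 14 Rab genes rose and 14 fell, with 4 and 6 past 1.2-fold, and not every array's deviations correlated best with its own number. The spread of 3 arrays and low signal limit what was detectable in the 11 genes under background.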
